A study of Mus musculus with 12 samples.

Results

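The MEF2 genes Mef2a (NCBI Gene 17258), Mef2b (17259), Mef2c (17260) and Mef2d (17261) encode the 4 myocyte enhancer factor 2 proteins of the mouse. They were found by their symbols among 16288 genes listed in the deposited expression files, and each symbol matched 1 entry. After a filter on low counts, which kept 12545 genes, Mef2a, Mef2c and Mef2d remained for testing, and Mef2b did not pass. RNA was sequenced from C2C12 cells, an immortalized mouse myoblast line that fuses into myotubes when serum is reduced. All 6 groups come from this single line, with 2 libraries each (named A and B and described as biological duplicates), so the p-values measure only the spread between such duplicates. The groups are proliferating cells in growth medium (GM, 10% fetal bovine serum) and cells at 24 h (DM 24h) and 48 h (DM 48h) of differentiation medium (2% horse serum with 2 ug/ml insulin), each with the solvent DMSO or with 50 uM PFI-3. PFI-3 is a chemical probe for the bromodomains of 3 related proteins of SWI/SNF remodelling complexes, BRM, BRG1 and PB1. GM cells were treated for 12 h before harvest, DM cells also had 12 h of pretreatment, and DMSO or PFI-3 was renewed every 24 h in differentiation medium. The comparison of PFI-3 with DMSO asks how blocking these bromodomains changes expression at each stage of muscle differentiation.

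MEF2 proteins bind A/T-rich DNA through a MADS box and an adjoining MEF2 domain, and they work with the MyoD family of basic helix-loop-helix factors to switch on muscle genes. Class IIa histone deacetylases hold MEF2 in a repressed state, and p38, ERK5, CaM kinases and calcineurin relieve that repression or raise MEF2 activity. Much of this control acts on the protein, which RNA levels do not show.

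Promoters of the 3 tested genes are shown first because they differ in the elements that myogenic and MEF2 factors can bind. RefSeq windows from 250 bases before to 50 bases after an annotated start were read on GRCm38.p6, 5′ to 3′ on the gene's strand. The start base is position 1, bases before it have negative positions, and there is no position 0. Capitals mark a match to the MEF2 consensus in Mef2a and E-boxes (CANNTG, which reads alike on both strands) in Mef2c, and Mef2d has no capitals because neither was found there. The windows are chr7:67372809-67373108 (minus strand) for Mef2a, chr13:83503784-83504083 (plus) and chr13:83573357-83573656 (plus) for starts 1 and 3 of the 3 Mef2c starts, and chr3:88142122-88142421 (plus) for Mef2d.
Mef2a: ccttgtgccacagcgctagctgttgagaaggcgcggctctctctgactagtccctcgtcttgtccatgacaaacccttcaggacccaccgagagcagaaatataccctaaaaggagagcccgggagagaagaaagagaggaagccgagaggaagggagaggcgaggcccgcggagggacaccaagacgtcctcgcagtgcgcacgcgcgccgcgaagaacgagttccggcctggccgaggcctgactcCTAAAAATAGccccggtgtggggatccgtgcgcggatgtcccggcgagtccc
Mef2c, start 1: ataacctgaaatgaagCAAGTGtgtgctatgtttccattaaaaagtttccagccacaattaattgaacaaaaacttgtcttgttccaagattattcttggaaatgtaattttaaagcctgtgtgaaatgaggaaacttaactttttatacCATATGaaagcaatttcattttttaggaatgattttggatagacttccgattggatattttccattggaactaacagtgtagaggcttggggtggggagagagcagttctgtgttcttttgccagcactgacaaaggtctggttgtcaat
Mef2c, start 3: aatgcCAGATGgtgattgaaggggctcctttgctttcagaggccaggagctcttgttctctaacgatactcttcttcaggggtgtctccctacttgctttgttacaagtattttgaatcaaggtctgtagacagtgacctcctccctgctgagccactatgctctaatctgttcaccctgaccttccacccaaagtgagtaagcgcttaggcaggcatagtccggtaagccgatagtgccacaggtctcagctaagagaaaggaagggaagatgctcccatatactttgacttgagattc
Mef2d: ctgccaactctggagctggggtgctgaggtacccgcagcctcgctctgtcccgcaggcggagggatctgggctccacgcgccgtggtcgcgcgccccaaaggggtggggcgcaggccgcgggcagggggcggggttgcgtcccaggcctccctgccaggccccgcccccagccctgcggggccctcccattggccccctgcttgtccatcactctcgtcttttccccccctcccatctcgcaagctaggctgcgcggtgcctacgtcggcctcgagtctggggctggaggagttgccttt
The Mef2a window has GC content of 62.3% and holds 1 match to the MEF2 consensus, CTAAAAATAG, with its first base at -2, so that it spans the start, and it holds no E-box. A MEF2 consensus match is found in 3.19% of the 32851 mouse windows of this length. The Mef2c window at start 1 has GC content of 35.7% and E-boxes at -234 (CAAGTG) and -100 (CATATG). The Mef2c window at start 3 has an E-box at -245 (CAGATG) and, at -137, TGAATCA. The latter is a match to a loose AP-1 pattern, TGANTCA on both strands, which allows any middle base. The window at start 2 (chr13:83523406-83523705) has neither an E-box nor a MEF2 match. An E-box is found in 72.31% of all windows and a match to this loose AP-1 pattern in 7.81%, so the E-box is common in windows of this length. The Mef2d window has GC content of 72.0% and 2 GC boxes (GGGCGG, both strands), at -124 and -89, and a GC box is found in 35.66% of windows. The Mef2b window (chr8:70152511-70152810, plus strand) has E-boxes at -28 and 44. CCAAT (37.41% of windows), TATAAA (13.62%) and CATTCC (14.66%) were also searched on both strands. CCAAT was found in the windows of Mef2b, Mef2d and Mef2c at starts 1 and 2, TATAAA in those of Mef2c at starts 1 and 2, and CATTCC in that of Mef2c at start 1. GC boxes were also found in the windows of Mef2b and of Mef2c at start 2. These matches describe the letters only, and no binding was measured here.

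Total expected counts ran from 12576374 to 13658352 per library, and 13499 to 14231 genes were listed in each. The log2 ratio of replicate B to replicate A had an SD over 10656 genes of 0.333 and 0.367 in the 2 GM groups and of 0.144 to 0.168 in the 4 DM groups, so GM values carry more replicate error. All 5 skeletal myoblast markers checked (Myod1, Myf5, Des, Cdh15 and Chrna1) were present in every group, Myod1 at 113 to 463 CPM (counts scaled to TMM library sizes). Summed CPM of these markers was 972 to 998 in GM with DMSO and 555 to 685 with PFI-3, 2564 to 2587 and 1689 to 1706 in DM 24h, and 4562 to 4671 and 3730 to 3817 in DM 48h. The marker sum was therefore lower with PFI-3 at each stage, alongside the MEF2 results, and its part in them was not tested. Not every marker followed the sum: Myf5 was at 48.9 CPM with PFI-3 and 40.9 CPM with DMSO in DM 24h, a difference edgeR did not call. Endothelial markers (4 of 4 listed) summed to at most 1.80 CPM and haematopoietic markers (3 of 4, Cd3e not listed) to at most 0.407 CPM. The cardiac list (4 of 4) summed to between 0.509 and 2.48 CPM in the GM and DM 24h groups, 16.3 to 18.5 in DM 48h with DMSO and 7.99 to 11.5 in DM 48h with PFI-3. Within it Myh6 reached 17.0 CPM and Nppa stayed at or below 0.0784 CPM, and the part of this list in the MEF2 results was not tested. The neuron list summed to 72.5 to 89.9 CPM in GM and 18.4 to 33.8 in DM, all but at most 0.0763 CPM of it from Tubb3 and Syn1, with Snap25 not listed. In bulk RNA, fewer cells of a type and less RNA per cell cannot be told apart, which holds for every level below.

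Mef2a, the MEF2 gene with the highest level in differentiating cells, rose 5.1-fold by DM 24h with DMSO and was not called (an adjusted p under 0.05) between DM 24h and DM 48h. With PFI-3 it was lower than with DMSO at DM 24h and higher at DM 48h, and it rose at both steps. Levels between genes are given in FPKM, the deposited value that is scaled by gene length. In GM, Mef2a had 16.55 and 19.54 FPKM with DMSO (libraries A and B) and 17.57 and 18.36 FPKM with PFI-3. In DM 24h it had 94.24 and 95.82 FPKM with DMSO and 67.74 and 73.08 FPKM with PFI-3. In DM 48h it had 100.09 and 99.77 FPKM with DMSO and 121.95 and 120.73 FPKM with PFI-3. The 2 GM groups overlapped. At DM 24h both PFI-3 libraries lay below both DMSO libraries, and at DM 48h both lay above. Ordered from lowest to highest, the groups were GM (both treatments), DM 24h with PFI-3, DM 24h with DMSO, DM 48h with DMSO and DM 48h with PFI-3. On counts, with edgeR's quasi-likelihood test fitted on all genes and Benjamini-Hochberg adjustment, Mef2a rose 5.1-fold from GM to DM 24h with DMSO (log2 2.35, SE 0.07, adjusted p = 1.16e-10) and 3.93-fold with PFI-3 (log2 1.97, SE 0.07, adjusted p = 8.32e-10). Those comparisons called 60.6% and 60.3% of all genes tested, in either direction. From DM 24h to DM 48h the difference was log2 0.14 with DMSO (95% interval -0.01 to 0.28, adjusted p = 0.111), which did not pass, in a comparison that called 48.1% of genes. With PFI-3 the same step was a 1.76-fold rise (log2 0.81, SE 0.07, adjusted p = 2.71e-06), where 27.3% of genes were called. The DMSO step passed without GM DMSO replicate A (0.141, adjusted p = 0.0383) or B (0.136, adjusted p = 0.0453). These GM libraries are not compared at this step and enter through the estimate of spread that the groups share.

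Mef2d was the highest MEF2 gene in GM and rose at both steps of differentiation, and PFI-3 lowered it at both DM stages. In GM it had 25.92 and 24.63 FPKM with DMSO and 24.07 and 24.29 FPKM with PFI-3. In DM 24h it had 43.62 and 47.08 FPKM with DMSO and 36.62 and 35.36 FPKM with PFI-3. In DM 48h it had 87.17 and 84.29 FPKM with DMSO and 64.27 and 64.30 FPKM with PFI-3. No neighbouring groups overlapped in the order GM with PFI-3, GM with DMSO, DM 24h with PFI-3, DM 24h with DMSO, DM 48h with PFI-3 and DM 48h with DMSO. The 2 GM groups, though separate, were not called different by edgeR (log2 -0.16, adjusted p = 0.147). The share of all genes whose groups separate in this way was not counted, so separation of any MEF2 gene is a description only. With DMSO the edgeR fold was 1.73 from GM to DM 24h (log2 0.79, SE 0.07, adjusted p = 1.28e-06) and 1.97 from DM 24h to DM 48h (log2 0.98, SE 0.07, adjusted p = 2.18e-07). With PFI-3 the folds for the same steps were 1.49 (log2 0.58, SE 0.07, adjusted p = 2.09e-05) and 1.82 (log2 0.86, SE 0.07, adjusted p = 1.83e-06). The mean FPKM of Mef2d with DMSO went from 25.3 ± 0.912 to 45.3 ± 2.45 and 85.7 ± 2.04 (SD, n = 2), where that of Mef2a was 18.0 ± 2.11 in GM and 99.9 ± 0.226 in DM 48h (SD, n = 2) with DM 24h close to the latter.

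Mef2c, a MEF2 gene needed for heart development that is known to come on late in cultured myoblasts, was close to the detection limit until DM 48h, and at DM 48h it was far lower with PFI-3. Its expected counts were 0 and 6 in GM with DMSO and 2 and 3 in GM with PFI-3. In DM 24h they were 22 and 12 with DMSO and 3 and 5 with PFI-3. In DM 48h they were 883 and 896 with DMSO (10.91 and 11.15 FPKM) and 171 and 169 with PFI-3 (2.15 and 2.13 FPKM). The 3 lowest groups (both GM groups and DM 24h with PFI-3) overlapped in FPKM, and all higher neighbours were separate. Because early counts were so low, ratios of summed counts with their 95% counting interval are given in place of fitted folds, and these intervals cover counting error only. With DMSO, Mef2c rose 5.84-fold from GM to DM 24h (34 against 6 counts, interval 2.42 to 17.0, edgeR adjusted p = 0.00433) and a further 54.5-fold to DM 48h (interval 38.8 to 78.9, edgeR adjusted p = 4.93e-09). Without DM 24h DMSO replicate A the first of these rises no longer passed (log2 1.98, adjusted p = 0.0501), and without GM DMSO replicate B, which holds all 6 of its GM DMSO counts, the fitted log2 value was 7.12. With PFI-3, the ratio of DM 24h to GM was 1.69 (8 against 5 counts, interval 0.488 to 6.58, edgeR adjusted p = 0.506), a difference not detectable at this depth, and the ratio of DM 48h to DM 24h was 43.6 (interval 21.9 to 102, edgeR adjusted p = 5e-07).

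Mef2b, the most divergent MEF2 gene, was at or below 0.12 FPKM in every library. Its expected counts were 0 in 6 libraries, 1 in 4 libraries and 2 in 2 libraries, and no group reached more than 3 counts in sum. That sum is the floor used here for each group, so no fold is given for Mef2b, and a count of 0 in a library allows up to 3 counts. All 4 libraries of GM and DM 24h with DMSO were at 0, and both GM and DM 48h groups with PFI-3 had 1 or 2 counts per library, values that cannot be told from counting error. In the GENCODE vM21 annotation Mef2b starts inside Borcs8, a neighbour on the same strand with 146 to 253 counts per library. The deposited counts instead name 1 RefSeq transcript for Mef2b. The RefSeq window of Mef2b (chr8:70152511-70152810) begins beyond the end of Borcs8 (70147319). Whether the 2 genes share reads was not tested.

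**Figure D1:**
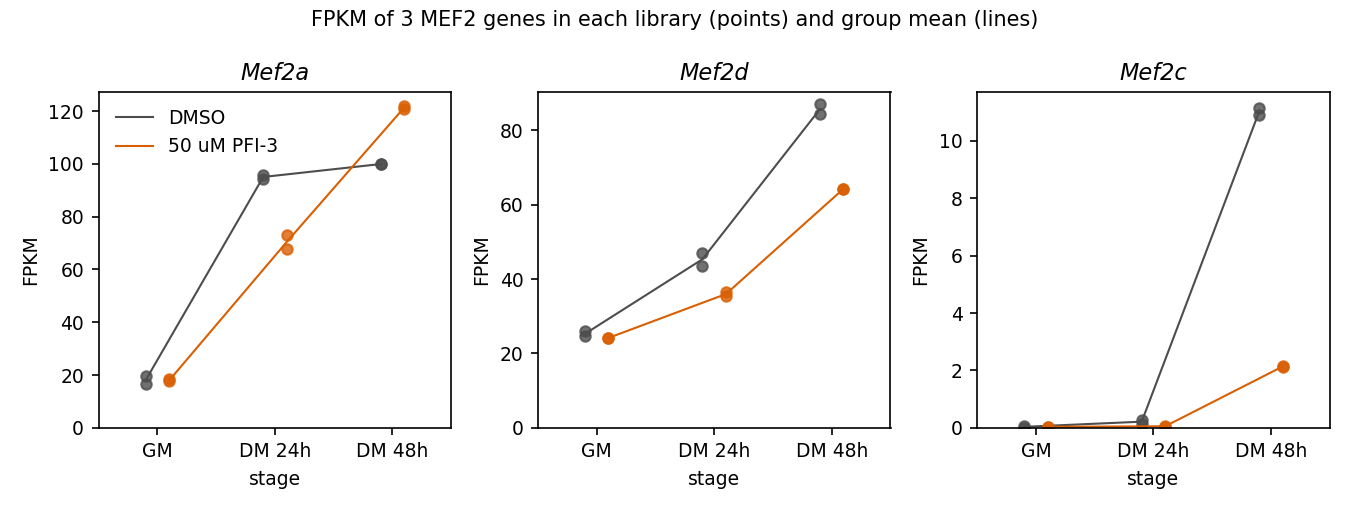
FPKM (y axis, linear, from 0, with its own scale for each gene) of Mef2a, Mef2d and Mef2c against stage (x axis), with 1 point for each of the 12 libraries and lines through the group means of DMSO (grey) and 50 uM PFI-3 (orange). Mef2a crosses between stages (67.74 and 73.08 FPKM with PFI-3 in the DM 24h libraries, 121.95 and 120.73 in those of DM 48h), and Mef2d and Mef2c lie below DMSO with PFI-3 at both DM stages.

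The make-up of the MEF2 transcript pool changed with stage and, at DM 48h, differed between treatments. The summed FPKM of the 4 genes was 43.4 ± 1.25 in GM with DMSO and 42.3 ± 0.679 with PFI-3, 141 ± 3.47 and 107 ± 2.82 in DM 24h, and 197 ± 2.05 and 188 ± 0.856 in DM 48h (SD, n = 2 each). The FPKM total with PFI-3 was below that with DMSO at DM 24h by a margin larger than the spread of the duplicates. At DM 48h it was again lower, by a smaller margin. Deposited FPKM was not rescaled to the TMM library sizes used for CPM and the edgeR tests, so these margins depend on the scale. In GM, mean Mef2d was 24.2 FPKM with PFI-3 and 25.3 with DMSO, but 125 and 140 CPM. In DM 48h, mean Mef2a was 121 FPKM with PFI-3 and 99.9 with DMSO, but 655 and 573 CPM. In both cases PFI-3 stood higher relative to DMSO in FPKM than in CPM. In GM, Mef2d made up 58.4% of the sum with DMSO and 57.2% with PFI-3, and Mef2a 41.6% and 42.5%. In DM 24h, Mef2a made up 67.6% and 66.0%, and Mef2d 32.2% and 33.8%. In DM 48h with DMSO the shares were 50.8% Mef2a, 43.6% Mef2d and 5.61% Mef2c, and with PFI-3 they were 64.6%, 34.2% and 1.14%. The DM 48h pool of cells given PFI-3 therefore stood closer in make-up to that of DM 24h (66.0% Mef2a with PFI-3) than the DM 48h pool with DMSO did, although its total was larger. These shares are a description without a test, and CPM in place of FPKM moved none of them by more than 1 percentage point.

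**Figure D2:**
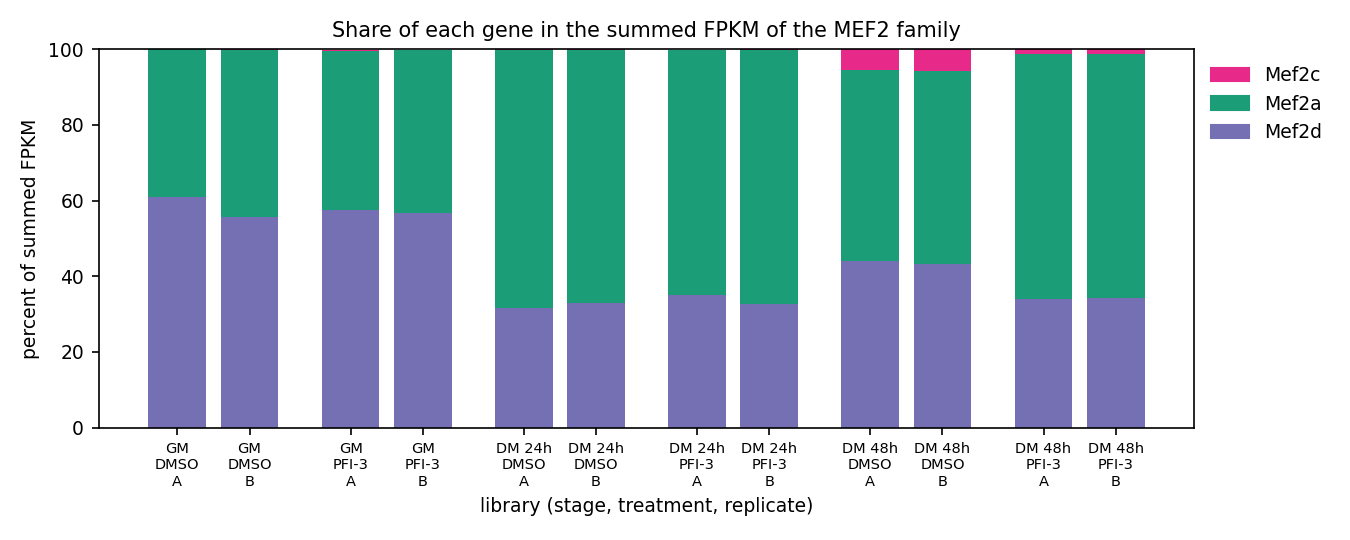
Percent of the summed FPKM of the MEF2 genes (y axis) held by Mef2d, Mef2a and Mef2c in each of the 12 libraries (x axis), with Mef2b too small to draw. Mef2d leads in the 4 GM libraries (55.7% to 61.0%), Mef2a leads in all 8 DM libraries, and the Mef2c band is widest in DM 48h with DMSO (5.51% and 5.71%).

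The direct comparison of PFI-3 with DMSO called none of the 3 tested MEF2 genes in GM by edgeR (adjusted p under 0.05), where 11.6% of all genes were called. At an unadjusted threshold of 0.05 edgeR gave 1 of them, Mef2d, and DESeq2 and limma with adjustment gave 0. In GM the difference was log2 -0.10 for Mef2a (95% interval -0.26 to 0.05, adjusted p = 0.361), -0.16 for Mef2d (interval -0.32 to -0.01, adjusted p = 0.147) and a ratio of 0.789 for Mef2c (5 against 6 counts, interval 0.19 to 3.1, adjusted p = 0.864). The Mef2d difference passed without GM DMSO replicate B (-0.24, adjusted p = 0.0283). The count of all genes called in GM, 1456, itself moved with the fit: it was 32 with only the 4 GM libraries, 741 with those libraries and a replicate block, and 2734 without GM DMSO replicate B.

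At DM 24h, PFI-3 lowered Mef2a, Mef2d and Mef2c, in a comparison that called 23.6% of all genes in either direction and 11.4% as lower. Mef2a fell to 0.717 of its DMSO level (log2 -0.48, SE 0.07, edgeR adjusted p = 0.000384), with counts of 4719 and 5079 against 6499 and 6803. Mef2d fell to 0.767 of its DMSO level (log2 -0.38, SE 0.07, edgeR adjusted p = 0.00206), with counts of 2497 and 2406 against 2946 and 3274. Mef2c fell to 0.229 of its DMSO level by summed counts (8 against 34, counting interval 0.0915 to 0.504, edgeR adjusted p = 0.0227). The Mef2a and Mef2d calls held under all 22 alternative settings. The Mef2c call was lost without DM 24h DMSO replicate A (log2 -1.58, adjusted p = 0.187), PFI-3 replicate A (-1.78, adjusted p = 0.153) or PFI-3 replicate B (-2.50, adjusted p = 0.0779).

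At DM 48h the 3 genes parted, in a comparison that called 27.4% of genes in either direction and 14.0% as lower. Mef2c fell to 0.183 of its DMSO level (log2 -2.45, SE 0.18, 95% interval -2.84 to -2.05, edgeR adjusted p = 2.35e-06). Mef2d fell to 0.706 of its DMSO level (log2 -0.50, SE 0.07, edgeR adjusted p = 0.000186), with counts of 4345 and 4339 against 6009 and 5779. Mef2a was 1.14-fold higher with PFI-3 (log2 0.19, SE 0.07, 95% interval 0.05 to 0.34, edgeR adjusted p = 0.0495), with counts of 8426 and 8327 against 7053 and 6995. The Mef2c and Mef2d falls were called under all 22 alternatives. The Mef2a rise sat at the threshold: 10 of 22 alternatives called it (adjusted p between 4.4e-06 and 0.197), and leaving out any 1 of the 8 DM libraries ended the call (log2 0.183 to 0.205).

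**Figure D3:**
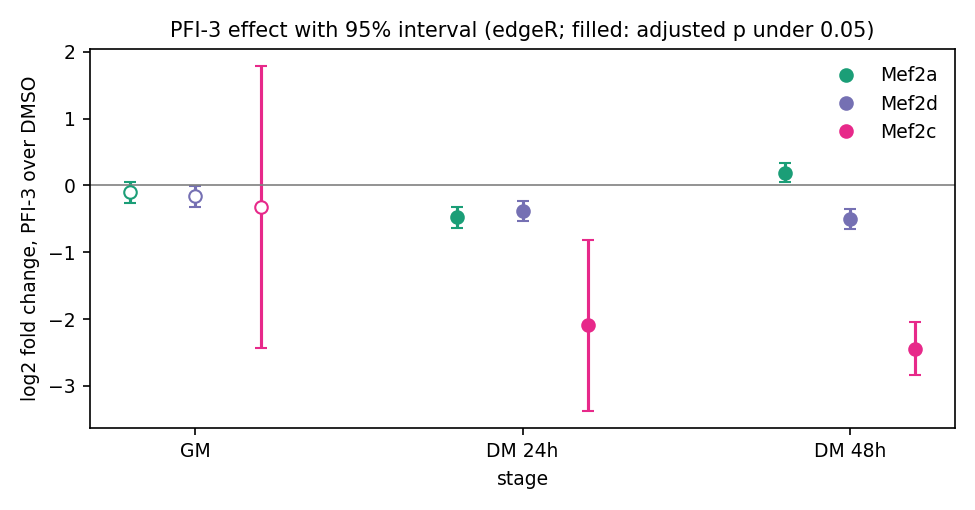
Log2 fold change of PFI-3 over DMSO (y axis) for Mef2a, Mef2d and Mef2c at each stage (x axis), with 95% intervals from edgeR and filled points where the adjusted p is under 0.05. No GM point is filled, all 3 DM 24h points lie below 0, and at DM 48h Mef2a lies above 0 at 0.19 while Mef2c is at -2.45.

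Whether the PFI-3 effect differed between stages was tested as an interaction in the same edgeR fit. Time with PFI-3 grew with stage, from 12 h in GM, so stage and exposure time cannot be told apart in these differences. For Mef2a the effect at DM 48h was higher than that at DM 24h by log2 0.67 (SE 0.09, 95% interval 0.47 to 0.88, adjusted p = 0.000664), a call that held under all 22 alternatives, where 12.1% of genes were called. The change in the Mef2a effect between the 2 DM stages was therefore called under more alternatives than its rise at DM 48h (22 against 10). For Mef2d the effect at DM 48h was lower than that in GM by log2 0.34 (a difference of -0.34, SE 0.10, adjusted p = 0.0375), where 14.5% of genes were called. That call held under 11 of 22 alternatives and was lost without GM PFI-3 replicate B (adjusted p = 0.0548) or without any 1 of the 8 DM libraries (adjusted p 0.0513 to 0.132). Between DM 48h and DM 24h the Mef2d effect differed by -0.12 (95% interval -0.33 to 0.09, adjusted p = 0.47). Set against GM, the Mef2a effect stood at -0.38 for DM 24h (adjusted p = 0.0571) and at 0.30 for DM 48h (adjusted p = 0.0619), and neither difference passed. These 2 passed when 1 GM library was left out, the first without GM DMSO replicate B (-0.46, adjusted p = 0.00717) and the second without GM DMSO replicate A (0.37, adjusted p = 0.0112). Between GM and DM 24h the treatment effect was called different for 3.37% of genes (423, or 92 to 995 with 1 library left out), and Mef2d was not among them (-0.22, adjusted p = 0.267). The lowest of these counts came without DM 24h DMSO replicate B and the highest, in separate fits, without GM DMSO replicate A or replicate B. For Mef2c no interaction passed: the effect at DM 48h differed from that at DM 24h by -0.35 (95% interval -2.05 to 1.34, adjusted p = 0.819), and from that in GM by -2.12 (interval -4.50 to 0.26, adjusted p = 0.225). Without GM DMSO replicate B, the library with the 6 Mef2c counts, the Mef2c effect differed from that in GM by -6.39 (DM 24h, adjusted p = 0.0487) and by -6.74 (DM 48h, adjusted p = 0.0115).

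Across the whole course from GM to DM 48h, Mef2a, Mef2d and Mef2c all rose in both treatments. With DMSO the rise was 5.61-fold for Mef2a (log2 2.49, SE 0.07, edgeR adjusted p = 2.57e-11), 3.42-fold for Mef2d (log2 1.77, SE 0.07, edgeR adjusted p = 3.8e-10) and 318-fold for Mef2c by summed counts (1779 against 6, counting interval 146 to 868, edgeR adjusted p = 3.99e-10). With PFI-3 it was 6.89-fold for Mef2a (log2 2.79, edgeR adjusted p = 1.33e-11), 2.71-fold for Mef2d (log2 1.44, edgeR adjusted p = 4.29e-09) and 73.9-fold for Mef2c (340 against 5, counting interval 31.3 to 229, edgeR adjusted p = 6.89e-08). These comparisons called 73.1% of all genes with DMSO and 67.2% with PFI-3, so a call here is the usual outcome for a gene. The stage and treatment comparisons share libraries and are not independent of each other.

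The partners that act with MEF2 on muscle genes were measured in full: 8 of 8 listed partner and upstream factors passed the filter. With PFI-3, 0 of 8 were called in GM by edgeR. At DM 24h 3 were called lower and 0 higher (median log2 -0.19, against -0.001 over all genes), and at DM 48h again 3 lower and 0 higher (median -0.18, against 0.001), where 11.4% and 14.0% of all genes were called lower. Myog, the bHLH factor myogenin that drives terminal differentiation, fell at DM 24h from 842 ± 6.68 to 406 ± 8.07 CPM (SD, n = 2, log2 -1.05, SE 0.08, edgeR adjusted p = 2.4e-06). At DM 48h Myog fell from 1833 ± 16.6 to 1196 ± 24.4 CPM (log2 -0.62, SE 0.07, edgeR adjusted p = 8.37e-05). Myod1, the bHLH factor that sets myoblast identity, was not called at any stage (log2 -0.30, -0.36 and -0.23 in GM, DM 24h and DM 48h, edgeR adjusted p = 0.15, 0.0574 and 0.206). Six4, a homeodomain factor upstream of myogenic genes, fell slightly at both DM stages (log2 -0.28 and -0.21, adjusted p = 0.00587 and 0.0218). Tcf3, an E protein that pairs with the MyoD family, fell at DM 24h (log2 -0.21, adjusted p = 0.0187). Myf6, another MyoD family gene, was also called at DM 48h, at 1.02 against 2.94 CPM (log2 -1.52, adjusted p = 0.0216), and is named after its value was seen. The count moved with single libraries. At DM 24h it was 1 without replicate B of either DM 24h group and 5 without any 1 GM library, and at DM 48h it was 1 without replicate A or B of DM 48h with PFI-3.

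Class IIa deacetylases and other repressors of MEF2 (Hdac4, Hdac5, Hdac7, Hdac9 and Cabin1, 5 of 5 tested) were read against the shares of all genes called with PFI-3, 11.6%, 23.6% and 27.4% at the 3 stages. In GM 0 of 5 were called by edgeR (median log2 0.18), at DM 24h 1 was higher (median -0.13) and at DM 48h 1 was lower (median 0.07). Hdac4 rose at DM 24h from 70.8 ± 10.3 to 93.9 ± 4.91 CPM (log2 0.41, adjusted p = 0.0142), and the call was lost without replicate A of either DM 24h group. Hdac9, itself a known MEF2 target that feeds back on MEF2, fell at DM 48h from 7.14 ± 0.087 to 4.10 ± 0.93 CPM (log2 -0.80, adjusted p = 0.0456), and the call was lost without any 1 of the 8 DM libraries.

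Among 7 coactivators, Mamstr, a MEF2 coactivator of skeletal muscle also known as MASTR, changed most. Mamstr fell from 31.0 ± 1.46 to 9.73 ± 0.917 CPM at DM 48h (SD, n = 2, log2 -1.67, SE 0.19, edgeR adjusted p = 6.29e-05) and from 6.89 ± 0.438 to 4.12 ± 1.08 CPM at DM 24h (log2 -0.74, adjusted p = 0.0443). It had the only call of this list at DM 48h. Carm1, an arginine methyltransferase that works with MEF2C, fell in GM (log2 -0.31, adjusted p = 0.0344) and at DM 24h (log2 -0.26, adjusted p = 0.0452). No other coactivator of the list was called with PFI-3 at any stage. Over all genes 11.6%, 23.6% and 27.4% were called in GM, DM 24h and DM 48h. The list median was -0.04 in GM over the 6 with more than 3 counts, then -0.09 and 0.02 in the DM stages. The 2 DM 24h calls were lost without any 1 of the 8 DM libraries, and the Carm1 call in GM without any of those, GM DMSO replicate A or GM PFI-3 replicate B.

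Of 20 genes of the kinases and phosphatase that signal to MEF2, 19 were tested (Prkd1 did not pass the filter), and they moved in both directions. In GM 2 were called higher and 1 lower (median log2 0.06 over the 18 with more than 3 counts), at DM 24h 3 higher and 5 lower (median -0.07) and at DM 48h 3 higher and 3 lower (median -0.08). Over all genes, 11.6%, 23.6% and 27.4% were called at these stages. Camk2a, a calcium and calmodulin dependent kinase, fell from 19.8 ± 0.276 to 7.12 ± 0.796 CPM at DM 24h (log2 -1.47, adjusted p = 6.89e-06) and from 181 ± 10.4 to 109 ± 0.808 CPM at DM 48h (log2 -0.73, adjusted p = 5.46e-05). The p38 kinases Mapk11 (log2 -0.63 at DM 24h, adjusted p = 0.00571) and Mapk12 (log2 -1.13 at DM 48h, adjusted p = 7.38e-05) fell. Map2k6, a kinase that activates p38, rose at DM 48h (log2 1.00, adjusted p = 0.00156) from 3.55 ± 0.418 to 7.12 ± 0.017 CPM. Ppp3ca, a catalytic subunit of calcineurin, rose in GM (log2 0.55, adjusted p = 0.00181) and at DM 24h (log2 0.55, adjusted p = 0.000409). In GM its fellow subunit Ppp3cc rose (log2 0.46, adjusted p = 0.0256) and Mapk7, which encodes ERK5, fell (log2 -0.33, adjusted p = 0.0177). The other calls, named after their values were seen, were Sik1 (log2 -0.51), Mapk12 (-0.44), Camk2d (0.36) and Camk2g (0.27) at DM 24h, Ppp3ca (0.32) and Camk2g (0.24) at DM 48h, and Ppp3cb at both DM stages (-0.47 and -0.25). The calcineurin subunit genes Ppp3ca and Ppp3cb were thus called in opposite directions at both DM stages. Without GM PFI-3 replicate A the GM counts were 1 higher and 0 lower. The DM 24h counts went to 1 higher without PFI-3 replicate A or DMSO replicate B and to 3 lower without PFI-3 replicate B, and the DM 48h count of higher genes went to 1 without DMSO replicate A, DMSO replicate B or PFI-3 replicate A.

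Muscle genes with textbook MEF2 sites or MEF2 dependence (17 of 17 tested) were mostly called higher with differentiation, and 11 of 17 at DM 24h and 13 of 17 at DM 48h were called lower with PFI-3. With DMSO, 14 were called higher from GM to DM 24h, 17 from GM to DM 48h and 17 from DM 24h to DM 48h, where 30.6%, 37.2% and 24.2% of all genes were called higher. None was called higher at either DM stage, and the median was log2 -1.28 at DM 24h over the 15 with more than 3 counts in either group and -0.77 at DM 48h. These counts stand against 11.4% and 14.0% of all genes called lower. The DM 48h count includes Myot, whose mean was 8.48 CPM in DM 48h with DMSO and at most 0.157 CPM in every other group. Myot thus passed the filter only through DM 48h with DMSO, so its calls against that group are not independent of the filter. In GM, 1 was called higher (Slc2a4, 1.08 ± 0.29 against 0.417 ± 0.036 CPM, named after its value was seen) and 1 lower, Des (median -0.06 over 13). Mb, the oxygen-binding protein myoglobin, fell most at DM 24h, from 18.6 ± 0.239 to 2.06 ± 0.434 CPM (log2 -3.17, SE 0.18, adjusted p = 1.11e-06), and at DM 48h it fell from 453 ± 19.0 to 61.9 ± 0.588 CPM (log2 -2.87, SE 0.10, adjusted p = 5.6e-08). Myom2, a protein of the sarcomere's M band, fell at DM 24h from 66.9 ± 2.29 to 19.5 ± 0.463 CPM (log2 -1.78, adjusted p = 1.8e-07). Smyd1, a methyltransferase needed for sarcomere assembly, fell at DM 24h from 31.3 ± 2.25 to 10.1 ± 0.414 CPM (log2 -1.63, adjusted p = 2.5e-06). Slc2a4, the insulin-responsive glucose transporter, fell at DM 48h from 11.7 ± 0.741 to 4.97 ± 0.841 CPM (log2 -1.23, adjusted p = 0.000477), as did the muscle kinase gene Srpk3 from 37.8 ± 0.766 to 18.5 ± 0.873 CPM (log2 -1.03, adjusted p = 0.000203). Des, the intermediate filament protein desmin, fell in GM (305 ± 46.7 against 423 ± 23.3 CPM, log2 -0.47, adjusted p = 0.00691) and was not called later (log2 -0.22 at either DM stage, adjusted p = 0.0897 and 0.0786). Xirp1, Ldb3 and Ppargc1a were also not called at DM 48h. This list was drawn up with results of these libraries known, and it overlaps the partner list in Myog and the deacetylase list in Hdac9, so its direction is not independent evidence. The count of higher genes in GM was 0 without any 1 library other than GM PFI-3 replicate A, and the count of lower genes in GM was 2 without GM DMSO replicate B or GM PFI-3 replicate B.

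**Figure D4:**
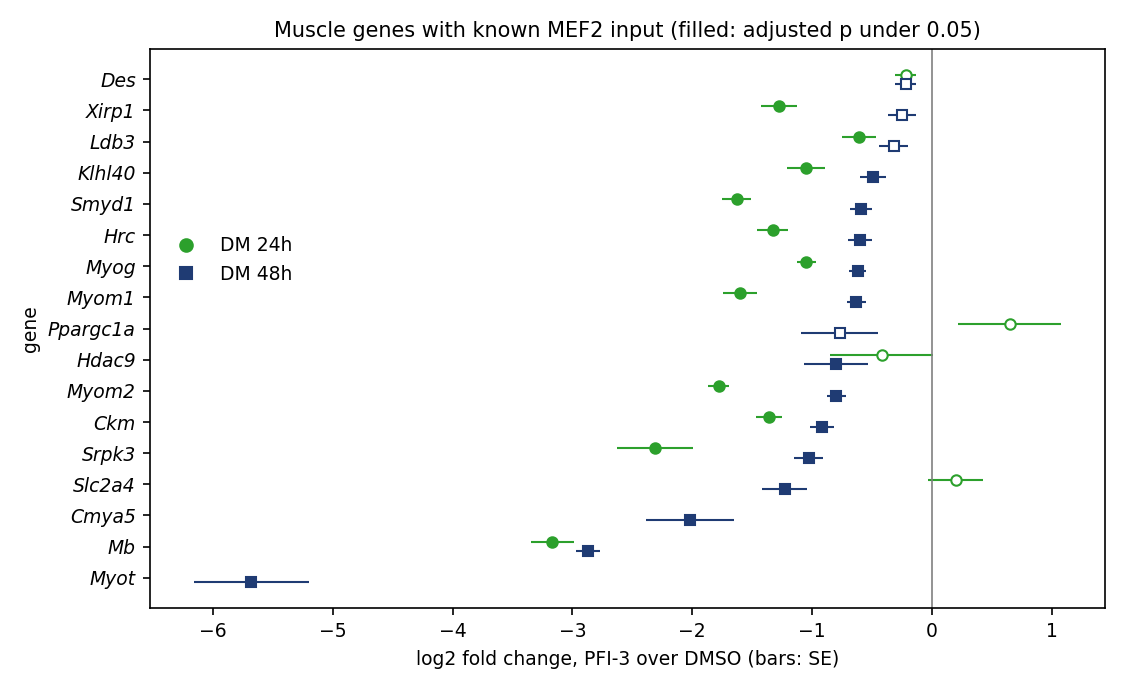
Log2 fold change of PFI-3 over DMSO (x axis, bars are SE) for the muscle genes of the MEF2 target list (y axis, ordered by DM 48h) at DM 24h (circles) and DM 48h (squares), filled where the adjusted p is under 0.05. Mb is far to the left at both stages (-3.17 and -2.87), and Des is near 0. Myot lies farthest left at DM 48h (-5.68, at 0.157 against 8.48 CPM) but passed the filter only through DM 48h with DMSO. Myot and Cmya5 have no DM 24h point because neither group had more than 3 counts.

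Of these 17 genes 13 had a RefSeq promoter window. Only Srpk3 (chrX:73774155-73774454, plus strand) held a MEF2 consensus match, CTATTTATAA with its first base at -67, where 3.7% of all genes with a window hold one. An E-box was held by 11 of 13 (74.99% of all genes) and the E-box CAGCTG by 7 of 13 (18.29% of all genes). The consensus pattern searched ends in A or G. The Myog window held CTATATTTAT, which differs from that pattern only at its last base and was not counted. Near matches in other windows were not searched. Known MEF2 sites of muscle genes can also lie outside windows of this length.

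Signal-responsive MEF2 targets (Jun, Klf2, Klf4, Nr4a1 and Egr1, 5 of 5 tested) moved in both directions. In GM 1 was called higher, at DM 24h 2 were higher and at DM 48h 1 was lower, with medians of log2 0.28, 0.03 and -0.19. Over all genes 5.46% were called higher in GM, 12.2% higher at DM 24h and 14.0% lower at DM 48h. Klf2, a zinc-finger factor of the Krüppel-like family, rose at DM 24h from 9.52 ± 0.659 to 20.3 ± 0.841 CPM (log2 1.09, adjusted p = 0.00146). Its relative Klf4 rose in GM from 32.7 ± 5.39 to 53.2 ± 4.15 CPM (log2 0.70, adjusted p = 0.00189) and at DM 24h (log2 0.44, adjusted p = 0.0113). Nr4a1, an orphan nuclear receptor of the immediate-early class, fell at DM 48h from 40.8 ± 2.54 to 22.5 ± 0.772 CPM (log2 -0.86, adjusted p = 0.000416). Without any 1 of the 4 DM 24h libraries the DM 24h count was 1, without GM DMSO replicate B or GM PFI-3 replicate A the GM count was 2, and without either GM PFI-3 library 3 were lower at DM 48h. Of the Dlk1-Dio3 genes, an imprinted cluster known to respond to MEF2A in muscle, only Rtl1 and Dio3 were listed, and neither passed the filter.

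The genes whose pattern over the 12 libraries was most like each MEF2 gene differed between the 3, by Pearson's r of log2(CPM + 1). The search covered the 10366 genes whose mean reached 5 CPM. For Mef2a they were Col6a2 (a collagen VI chain, r = 0.9951), Dync1i1 (0.9933), Tspan14 (0.9928), Chrdl1 (0.9926) and Frmpd1 (0.9922). Col6a2 had a mean of 8.45 CPM in GM with DMSO, 453 and 277 CPM in DM 24h with DMSO and PFI-3, and 595 and 638 CPM in DM 48h. For Mef2c they were Psmc3 (a proteasome subunit, 0.9949), Slc44a4 (0.9929), Art1 (0.9927), Padi2 (0.9919) and Mafa (0.9893). Mef2c had group means of at most 1.33 CPM before DM 48h, against 72.5 CPM with DMSO and 13.3 CPM with PFI-3 at DM 48h. Every r with Mef2c therefore rests mainly on the DM 48h libraries. Art1 had 33.2 CPM in DM 48h with DMSO and 6.14 CPM with PFI-3, while Psmc3 ranged only from 224 to 450 CPM across the group means, so a high r does not mean a like fold. For Mef2d they were Inppl1 (0.9950), Frmd4b (0.9948), Myl4 (a myosin light chain, 0.9947), Ctxn3 (0.9935) and Baiap2l1 (0.9927). Between the MEF2 genes r was 0.934 for Mef2c with Mef2d, 0.87 for Mef2a with Mef2d and 0.669 for Mef2a with Mef2c. These correlations are descriptions over 12 libraries that fall into 6 groups and share the stage differences.

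The deposited length of Mef2a, Mef2c and Mef2d also moved between groups. What this length stands for is not given in the sources used here, and whether FPKM was scaled by it was not tested. For Mef2c it was 6036.58 bases in GM with DMSO (replicate B), 5970.52 and 5970.67 in GM with PFI-3, and 5970.28 and 5970.55 in DM 24h with PFI-3. It was 6375.68 and 6427.00 bases in DM 24h with DMSO, 6367.71 and 6356.87 in DM 48h with DMSO, and 6377.82 and 6386.14 in DM 48h with PFI-3. The short values thus belong to the groups with at most 6 Mef2c counts per library and the long values to those with at least 12. For Mef2a the length lay between 5532.56 and 5556.53 bases and for Mef2d between 5424.93 and 5435.92 bases, and in both genes GM was shortest and DM 48h longest. Mef2d at DM 24h was at 5434.30 and 5434.61 bases with DMSO and 5430.59 and 5432.26 with PFI-3, without overlap. In these files the length differed between libraries for 89.3% of 5784 genes with several transcripts and for 0% of 9651 genes with 1 transcript. The RefSeq transcripts named for Mef2a, Mef2b, Mef2c and Mef2d number 7, 1, 18 and 3. No value per transcript was used here, so which transcripts were present is not given.

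**Figure D5:**
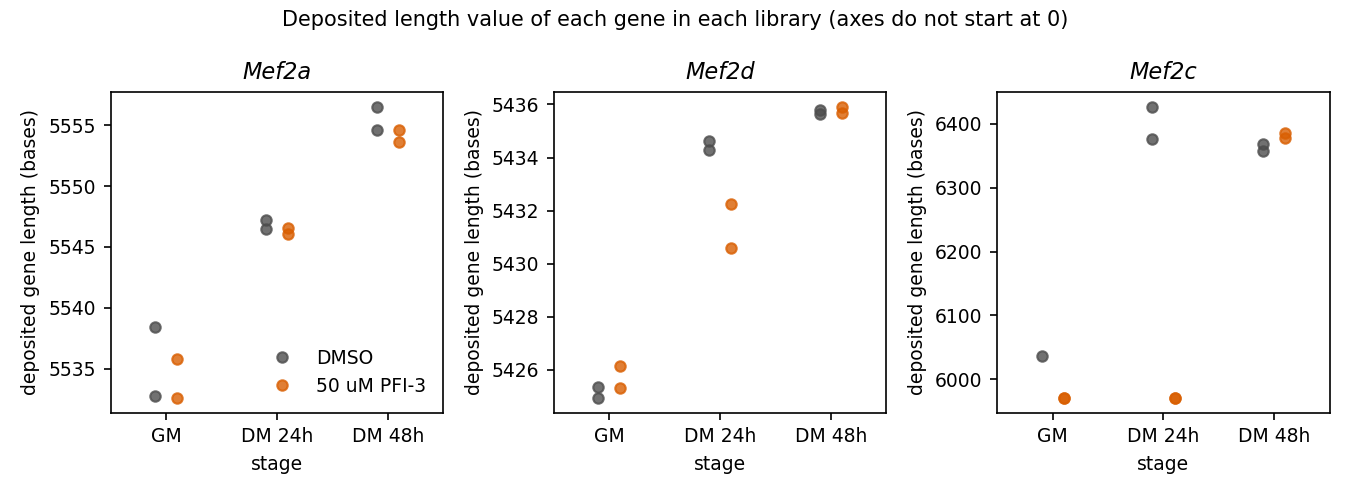
Deposited gene length in bases (y axes, which do not start at 0) of Mef2a, Mef2d and Mef2c in each library against stage (x axis), DMSO in grey and PFI-3 in orange. Mef2c splits into values from 5970.28 to 6036.58 and values from 6356.87 to 6427.00, and in Mef2a and Mef2d the DM 48h libraries are the longest.

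In GENCODE vM21 (GRCm38) Mef2a lies at chr7:67231163-67372858 (minus strand), Mef2b at chr8:70139711-70167488 (plus), Mef2c at chr13:83504034-83667080 (plus) and Mef2d at chr3:88142372-88172086 (plus). Lysmd4 overlaps Mef2a on the opposite strand with 42 to 185 counts per library, against at least 1230 for Mef2a. Gm44667 and Gm44668 overlap Mef2a on the same strand, and their counts were not read. The antisense gene 1700113A16Rik overlaps Mef2d and was taken as 0 in every library, a value also given to genes that are not listed. Whether counting used strand is not given in the sources used here, so reads from the overlaps cannot be told apart.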

How the data were processed

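RNA-seq libraries of 12 C2C12 samples were analysed from the values the authors deposited. Each file gives, per the file headers, an expected count, an FPKM and a length per gene. The submitters' processing notes name HISAT, StringTie, Cufflinks, Bowtie, RSEM, DESeq2 and the mm10 build (GRCm38), and the role of each is not given in the sources used here. The authors' expected counts were whole in 93.3% to 93.7% of entries and were rounded. The deposited FPKM values were used as given, without TMM scaling, for levels between genes and for the MEF2 sums and shares. A gene missing from a library was taken as 0: of 6963 cases listed in 1 of 2 replicates, 97.0% had at most 5 counts.

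Counts of all 6 groups were fitted together in edgeR 4.0.16 (R 4.3.3) with filterByExpr, TMM scaling and the quasi-likelihood test, with p-values adjusted by Benjamini-Hochberg over 12545 genes and calls at an adjusted p under 0.05. Expected counts of genes that share reads with a copy or neighbour depend on how the authors' tool divided them. Counting intervals are exact, at 95%. Alternatives were DESeq2-style size factors, DESeq2 1.42.0, other count filters, limma 3.58.1 on log2(FPKM + 1) and log2(FPKM + 0.1), a replicate block, fits on the compared libraries only, and leaving out each library. Named list genes were, besides Myod1 and Myog, up to 3 called genes of largest change per list and treatment comparison whose mean reached 5 CPM, and 5 like genes per MEF2 gene. The MEF2 genes and the lists were chosen with earlier results of these data known. Protein sequences were not analysed here.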

Additional observations from a re-analysis of the deposited data

Results flagged for a closer look

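The PFI-3 effect on Mef2a differed between the 2 differentiation stages. The log2 fold change of PFI-3 over DMSO at DM 48h exceeded that at DM 24h by 0.67 (edgeR interaction, adjusted p = 0.000664). This comparison called 12.1% of all genes. Both PFI-3 libraries lay below both DMSO libraries at DM 24h and above them at DM 48h. That is a description only, since the share of all genes that separate in this way was not counted. The Mef2a rise at DM 48h itself sat at the threshold (edgeR adjusted p = 0.0495). For Mef2d, the DM 48h effect of PFI-3 minus the GM effect was -0.34 on the log2 scale (edgeR interaction, adjusted p = 0.0375). That call held under 11 of 22 alternatives, in a comparison that called 14.5% of all genes. Time with PFI-3 differed between the stages as well.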

How the results depend on the processing

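Of 36 tests of MEF2 genes, 24 kept their direction and their side of the threshold under every alternative that gave a value, and 27 did under those that left out no library. There were 22 alternatives, 10 of which left out no library, and 20 gave a value for Mef2c with PFI-3 in GM and for Mef2c from GM to DM 24h with PFI-3. The Mef2a rise with PFI-3 at DM 48h (0.19) missed the threshold with size factors and with DESeq2 (0.187 each), with no count filter (0.193) and with a mean of at least 10 counts (0.188), and gave 0.183 to 0.205 with 1 library left out. Fitted on the compared libraries alone, Mef2a from DM 24h to DM 48h with DMSO passed (0.139, also with the replicate block), and ran from 0.12 to 0.157 with 1 library left out. The Mef2a difference in effect between DM 24h and GM passed with size factors and DESeq2 (-0.399 each) and limma (-0.426, both filters), and ran from -0.462 to -0.295 with 1 library left out. That between DM 48h and GM ran from 0.213 to 0.373. For Mef2c, limma on log2(FPKM + pseudocount), which understates low genes, gave a positive sign in GM (0.001 with a pseudocount of 1 under both filters, 0.049 with 0.1), no call at DM 24h (-0.202, both filters) and a rise from GM to DM 24h of 0.23 that missed (mean FPKM of at least 1), as did edgeR on the compared libraries (2.51). It made the difference in effect between DM 48h and GM pass (-1.939, -2.362 and -1.939), and that between DM 48h and DM 24h (-1.736, both filters). With 1 library left out, Mef2c ran from -1.255 to 4.296 for PFI-3 in GM, -2.496 to -1.578 at DM 24h, 1.565 to 7.119 from GM to DM 24h with DMSO, and -6.39 to -0.834, -6.743 to -1.195 and -0.868 to 0.05 for the differences between DM 24h and GM, DM 48h and GM, and DM 48h and DM 24h. Its sign turned for PFI-3 in GM without GM DMSO replicate B (4.296) and for the last difference without replicate B of DM 24h with DMSO (0.026) or PFI-3 (0.05). Mef2d ran from -0.238 to -0.086 for PFI-3 in GM and from -0.418 to -0.263 for its difference between DM 48h and GM, which missed on the compared libraries alone (-0.363, also with the replicate block). The count of muscle target genes called lower was 2 with DESeq2 and 0 on the compared libraries in GM (1 in the fit reported, 1 to 2 with 1 library left out) and, at DM 48h, 7 with limma on log2(FPKM + 0.1) (13 reported). The causes were not tested. A lone library left in a group is assumed to vary like the other groups. On the compared libraries alone, all genes called by PFI-3 numbered 32, 5583 and 5688 in GM, DM 24h and DM 48h, against 1456, 2966 and 3438, and with the replicate block added 741, 5719 and 6034. From DM 24h to DM 48h with PFI-3 they numbered 5674 (6069 with the block) against 3429, and for the differences in effect 79 (101 with the block) against 423 (DM 24h and GM), 1037 (1093) against 1824 (DM 48h and GM) and 4154 (4181) against 1517 (DM 48h and DM 24h). The replicate block over all 12 libraries changed no MEF2 call (Mef2a at DM 48h was 0.194), and the letters were not used as pairs, since the labels do not say what they share: same-letter deviations correlated at 0.395 between the GM groups, 0.0131 in DM 24h and 0.0296 in DM 48h. Depth limits Mef2b and, before DM 48h, Mef2c.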
